A study of Saccharomyces cerevisiae with 11 samples.

Results

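The comparison described here is that of Htt-103Q-NLS yeast cells carrying plasmid-borne *SLX5*, Htt-103Q [*SLX5*], with the same cells carrying the empty vector, Htt-103Q [V]. It was chosen by the sample labels alone, takes 6 of the 11 RNA-seq libraries of the series (3 of each group), and covers all 6321 of 7126 genes that passed a filter on low counts. Both groups were grown from 1 W303 integrant strain, in which a GFP-tagged, nuclear-targeted huntingtin (Htt) fragment with an expanded glutamine tract stands under the *GAL* promoter beside a *LEU2* marker. The Htt-103Q [*SLX5*] cells held a low-copy *CEN* plasmid with *SLX5* and a *HIS3* marker, and the Htt-103Q [V] cells held an empty *CEN* vector with the same marker. All cultures were kept at 25°C in 2% raffinose and then given 2% galactose for 4 h to induce the Htt fragment. The letters a, b and c name separate clones of a group, each grown as 1 culture and sequenced as 1 library. The other 5 libraries, 3 of Htt-25Q [*SLX5*] and 2 of Htt-25Q [V], carry a fragment with the shorter tract in a different integrant strain. They entered the fit and are used below to ask whether the response to *SLX5* differed between the Htt lengths. The Htt-25Q [V] libraries also serve to read the gene lists in the vector cells of both Htt lengths.

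Slx5 and Slx8 form a SUMO-targeted ubiquitin ligase (STUbL), an enzyme that binds proteins modified by chains of the small protein SUMO and attaches ubiquitin to them, which often sends them to the proteasome. An expanded glutamine tract makes the Htt fragment prone to aggregate, and aggregates in the nucleus can touch chromatin and transcription. In yeast, the transcription factors Msn2 and Msn4 can switch on genes of the general stress response and of storage carbohydrates through a short stress response element. Many genes of ribosome biogenesis carry the PAC and RRPE elements and are usually expressed in the opposite manner.

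The 6 libraries held between 20562016 and 24932042 estimated counts, and ribosomal RNA took between 0.402% and 1.61% of them. By its transcripts the strain was of the alpha mating type, with *MF(ALPHA)1*, the alpha-factor gene, between 1455 and 2602 CPM (counts of the gene relative to the scaled library total) and the a-factor genes *MFA1* and *MFA2* at or below 0.135 CPM in every library. Levels below are CPM scaled by TMM unless TPM, which also divide by gene length, are named. Fold changes are Htt-103Q [*SLX5*] over Htt-103Q [V] on the log2 scale, with a standard error (SE) from the test statistic of edgeR's quasi-likelihood F test. A gene is called where the Benjamini-Hochberg adjusted p of that test over all 6321 genes is under 0.05. The p-values rest on the spread between cultures within a group, estimated over all 11 libraries and not the 6 alone. In such bulk samples fewer cells expressing a gene and less RNA per cell cannot be told apart.

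*SLX5* (YDL013W, chromosome IV, 429067 to 430926, plus strand) rose in the cells with the plasmid. It was counted at 494, 752 and 663 CPM in Htt-103Q [*SLX5*] cultures a, b and c, against 53.9, 50.1 and 65.2 CPM in Htt-103Q [V] cultures a, b and c. Every culture with the plasmid lay far above every culture without it, and the mean was 636 ± 131 CPM in Htt-103Q [*SLX5*] and 56.4 ± 7.83 CPM in Htt-103Q [V] (SD, n = 3 each). The log2 fold change was 3.50 (SE 0.149), or 11.3-fold, with an adjusted p of 2.39e-07 by edgeR's quasi-likelihood test. The counts do not separate transcripts of the plasmid from those of the chromosomal gene. *SLX8*, the other subunit of the ligase, was not called: it was at 33.6, 42.0 and 36.1 CPM in Htt-103Q [*SLX5*] against 32.1, 29.6 and 34.3 CPM in Htt-103Q [V], with a log2 fold change of 0.22 (SE 0.0917). Per length the pair was closer in Htt-103Q [V] than with the plasmid. *SLX5* had 187, 275 and 250 TPM in Htt-103Q [*SLX5*] and 20.3, 18.7 and 24.6 TPM in Htt-103Q [V]. *SLX8* had 33.7, 40.6 and 35.9 TPM in Htt-103Q [*SLX5*] and 31.7, 29.2 and 34.2 TPM in Htt-103Q [V]. *SLX5* was therefore the more abundant of the pair in every culture with the plasmid and the less abundant in every culture with the vector.

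**Figure D1:**
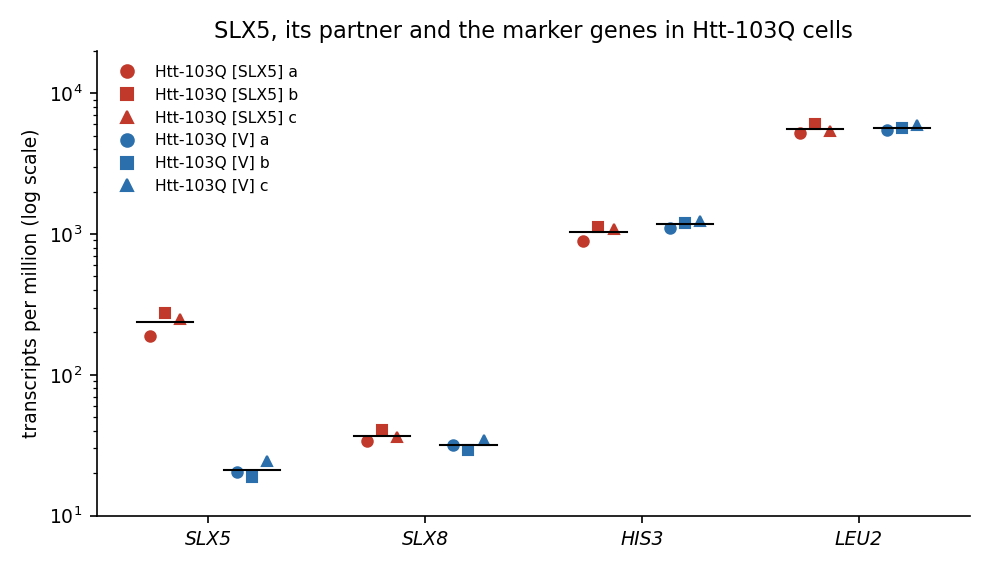
TPM on a log axis for *SLX5*, *SLX8* and the marker genes *HIS3* and *LEU2* in the 3 cultures of Htt-103Q [*SLX5*] (red) and of Htt-103Q [V] (blue), with the mean as a bar. *SLX5* sits between 187 and 275 TPM with the plasmid, against 18.7 to 24.6 TPM with the vector, while the groups overlap for the other 3 genes.

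The markers did not separate the groups. *HIS3*, an enzyme of histidine synthesis, was at 655, 856 and 809 CPM in Htt-103Q [*SLX5*] and 830, 896 and 919 CPM in Htt-103Q [V] (log2 fold change -0.19, SE 0.0931). *LEU2*, an enzyme of leucine synthesis and the marker beside the Htt construct, was at 7460, 8912 and 7774 CPM in Htt-103Q [*SLX5*] and 7878, 8139 and 8472 CPM in Htt-103Q [V] (log2 fold change -0.02, SE 0.0743). Both ranges overlapped. Nor was any gene next to *SLX5* on chromosome IV called. *NOP1*, which encodes the nucleolar methyltransferase fibrillarin, had a log2 fold change of -0.21 (SE 0.108), and *TSC13*, an enzyme of very long chain fatty acid synthesis, 0.27 (SE 0.10). On the other side of *SLX5*, YDL012C was at -0.19 (SE 0.0883) and *GRX6*, a glutaredoxin of the early secretory pathway, at 0.04 (SE 0.101). All 4 overlapped between the groups.

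*SLX5* was the 1 gene called of 6321 (0.0158%) by edgeR's quasi-likelihood test. Without adjustment 1468 genes had a p under 0.05 (23.2%), 801 with higher counts in Htt-103Q [*SLX5*] (12.7%) and 667 with lower counts (10.6%). DESeq2's Wald test called 294 genes (4.65%), 191 higher (3.02%) and the others lower (1.63%). A likelihood ratio procedure in 2 steps, patterned on the study's methods, called 302 of the 4158 genes that passed its first step (7.26%), 207 higher (4.98%) and 95 lower (2.28%). Both called 253 genes. Most differences were small: of 5394 genes averaging 10 CPM or more, 97.5% had a log2 fold change within 0.5 of 0, 10 were at 1 or more and 2 at -1 or less. The cultures of the groups did not overlap for 530 genes that were higher in Htt-103Q [*SLX5*] (8.38%) and 533 that were lower (8.43%). Between chromosomes the medians differed little, from -0.0198 on chromosome III to 0.0153 on chromosome VII among the nuclear ones.

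**Figure D2:**
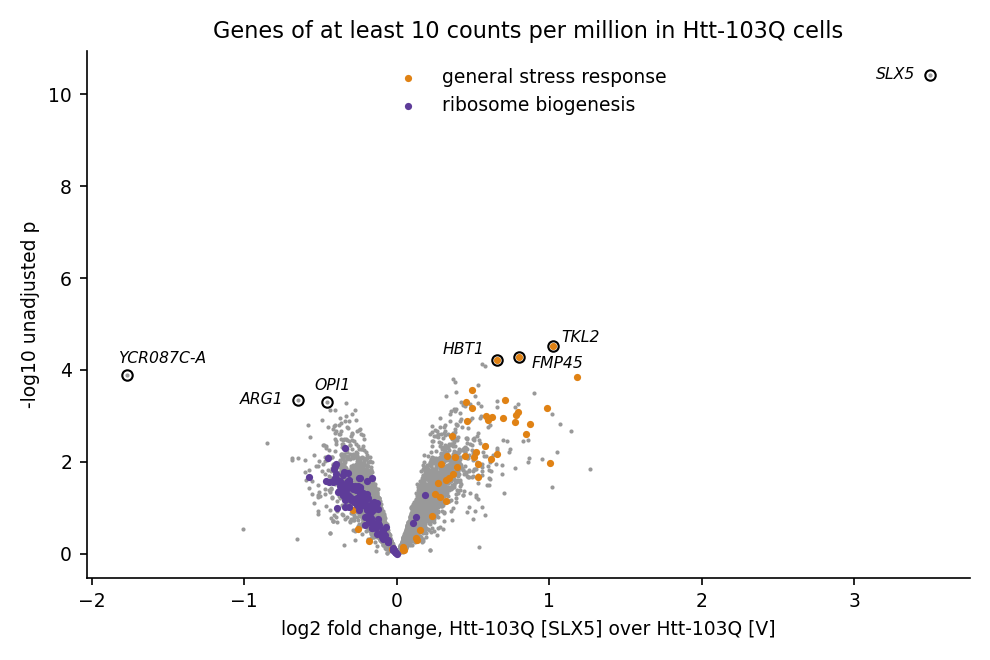
Log2 fold change of Htt-103Q [*SLX5*] over Htt-103Q [V] against -log10 of the unadjusted p of edgeR's quasi-likelihood test, for the 5394 genes that average 10 CPM or more in Htt-103Q cells. *SLX5* stands alone at 3.50, genes of the general stress response (orange) lie mostly to the right of 0, and genes of ribosome biogenesis (purple) mostly to the left.

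One vector culture stood apart from its group. On the first principal component of log2 CPM, which held 43.8% of the variance of the 6 libraries, Htt-103Q [*SLX5*] a, b and c lay at 3.40, 17.9 and 7.83, and Htt-103Q [V] a, b and c at -22.7, -12.6 and 6.16. Culture c of Htt-103Q [V] thus lay among the cultures with the plasmid. Its median absolute log2 difference over genes was 0.0945 to Htt-103Q [*SLX5*] a and 0.0924 to Htt-103Q [*SLX5*] c, but 0.215 to Htt-103Q [V] a and 0.148 to Htt-103Q [V] b. For *SLX5* itself it matched its label, with the 65.2 CPM given above. Of the 530 genes whose cultures did not overlap and were higher in Htt-103Q [*SLX5*], culture c was the Htt-103Q [V] culture nearest to them for 398 (75.1%), and of the 533 lower genes for 369 (69.2%). Without Htt-103Q [V] c, edgeR's quasi-likelihood test called 1647 of 6318 genes (26.1%), of which 893 were higher and 754 lower in Htt-103Q [*SLX5*]. No other single library had such an effect: without Htt-103Q [*SLX5*] a *TKL2* and *FMP45* were called beside *SLX5*, without Htt-103Q [*SLX5*] b *ERR2*, which has near-identical copies, was, and without any 1 of the other 8 libraries *SLX5* was called alone. Of the 294 genes called by DESeq2 with all libraries, 293 were also called by edgeR's test without Htt-103Q [V] c. Both fits rest on the same counts, so this overlap is no independent support. What sets that culture apart was not tested.

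**Figure D3:**
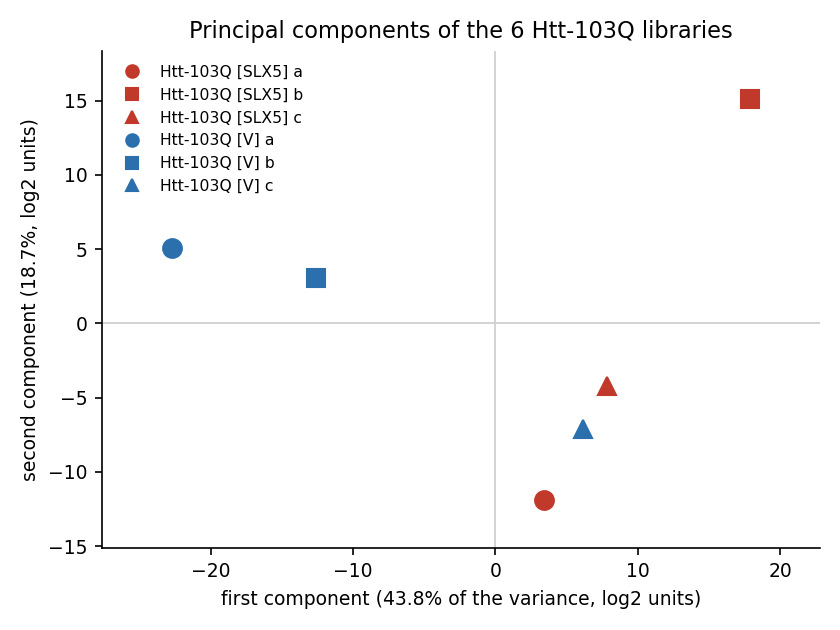
First and second principal components of log2 CPM over the 6 libraries of Htt-103Q [*SLX5*] (red) and Htt-103Q [V] (blue), each point 1 culture, with circles, squares and triangles for clones a, b and c. Htt-103Q [V] a and b lie at -22.7 and -12.6 on the first component, while Htt-103Q [V] c at 6.16 lies between Htt-103Q [*SLX5*] a and c.

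Upstream sequences are shown for the 3 genes with the smallest p among those higher in Htt-103Q [*SLX5*] and the 2 among those lower. All were of at least 10 CPM without overlap. They are printed as examples of the promoter elements read below for the gene lists. Of these genes only *SLX5*, which the plasmid carries, was called by edgeR's quasi-likelihood test. Each run is the 300 bases before the coding start, 5′ to 3′ on the strand of the gene, from the RefSeq R64 genome. Capitals mark matches on either strand to the stress response element AGGGG of Msn2 and Msn4, the PAC element GATGAG, the RRPE element AAAATTTT, the Gcn4 site TGACTC, the Cbf1 site CACGTG, the Gal4 site and the Rpn4 site GGTGGCAAA, and no 2 of the marked matches overlap.
SLX5 (chrIV:428767-429066, plus strand): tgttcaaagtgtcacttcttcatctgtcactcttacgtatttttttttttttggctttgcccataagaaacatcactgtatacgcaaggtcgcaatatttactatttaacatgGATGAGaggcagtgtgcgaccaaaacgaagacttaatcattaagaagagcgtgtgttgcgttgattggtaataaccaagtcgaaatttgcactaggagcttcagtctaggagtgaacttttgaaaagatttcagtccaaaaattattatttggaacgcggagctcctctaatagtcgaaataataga
TKL2 (chrII:476438-476737, minus strand): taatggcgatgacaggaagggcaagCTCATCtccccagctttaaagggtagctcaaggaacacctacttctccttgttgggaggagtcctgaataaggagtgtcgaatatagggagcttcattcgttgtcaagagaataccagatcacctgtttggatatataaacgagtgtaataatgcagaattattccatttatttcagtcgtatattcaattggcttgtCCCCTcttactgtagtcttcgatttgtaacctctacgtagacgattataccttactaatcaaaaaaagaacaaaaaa
FMP45 (chrIV:61802-62101, minus strand): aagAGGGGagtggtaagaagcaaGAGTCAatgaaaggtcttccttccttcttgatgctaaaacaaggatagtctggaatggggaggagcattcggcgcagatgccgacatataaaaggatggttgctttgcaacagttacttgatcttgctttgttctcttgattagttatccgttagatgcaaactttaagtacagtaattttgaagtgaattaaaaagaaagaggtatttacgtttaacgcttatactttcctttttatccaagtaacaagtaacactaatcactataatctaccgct
YCR087C-A (chrIII:264468-264767, minus strand): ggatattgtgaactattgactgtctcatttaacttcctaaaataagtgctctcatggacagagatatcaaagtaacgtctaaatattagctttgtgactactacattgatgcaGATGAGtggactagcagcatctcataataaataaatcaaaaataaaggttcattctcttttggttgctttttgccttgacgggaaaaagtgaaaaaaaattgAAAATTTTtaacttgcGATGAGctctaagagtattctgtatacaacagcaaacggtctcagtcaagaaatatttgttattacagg
ARG1 (chrXV:218911-219210, plus strand): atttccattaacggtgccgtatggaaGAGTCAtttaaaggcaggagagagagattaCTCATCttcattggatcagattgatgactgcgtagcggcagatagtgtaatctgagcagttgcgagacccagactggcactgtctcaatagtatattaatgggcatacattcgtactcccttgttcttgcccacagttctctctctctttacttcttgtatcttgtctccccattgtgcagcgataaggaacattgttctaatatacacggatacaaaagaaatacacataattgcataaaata

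*TKL2* held a stress response element starting at base -77 from the coding start and *FMP45* one at -297, each once. *TKL2* also held a PAC element at -275 and *FMP45* a Gcn4 site at -277. The window of *ARG1* held a Gcn4 site at -274 and a PAC element at -244, and the window of *YCR087C-A* held PAC elements at -187 and -69 with an RRPE element at -85. *SLX5* held a PAC element at -187. Among all 5767 tested coding genes with such a window, AGGGG stood in 22.2%, GATGAG in 19.0%, AAAATTTT in 9.59%, TGACTC in 7.82%, CACGTG in 3.59%, the Gal4 site in 1.42% and GGTGGCAAA in 1.23%. The windows shown are not all that the rule takes, so nothing is read from how many of them hold an element. A match is a description of these letters and not evidence of binding.

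After *SLX5*, the smallest adjusted p was 0.085 by edgeR's quasi-likelihood test, shared by *TKL2*, *FMP45*, *HBT1*, *TFA2* and YLR252W, all with higher counts in Htt-103Q [*SLX5*]. *TKL2*, a minor transketolase of the pentose phosphate pathway, was at 86.9, 122 and 135 CPM in Htt-103Q [*SLX5*] against 54.7, 48.1 and 65.6 CPM in Htt-103Q [V] (log2 fold change 1.03, SE 0.156). *FMP45*, a membrane protein related to Sur7 of the eisosome, was at 34.0, 42.5 and 46.6 CPM in Htt-103Q [*SLX5*] against 20.0, 22.8 and 27.9 CPM in Htt-103Q [V] (log2 fold change 0.80, SE 0.129). *HBT1*, a protein of polarized growth that binds the ubiquitin-like Hub1, was at 243, 272 and 314 CPM in Htt-103Q [*SLX5*] against 188, 154 and 184 CPM in Htt-103Q [V] (log2 fold change 0.66, SE 0.107). None of these 3 overlapped between the groups, and in each the lowest culture with the plasmid was culture a. *FMP45* and *HBT1* lie next to each other on the minus strand of chromosome IV. *TFA2*, the small subunit of the general transcription factor TFIIE, was at 40.8, 45.1 and 40.8 CPM in Htt-103Q [*SLX5*] against 24.4, 29.6 and 32.2 CPM in Htt-103Q [V] (log2 fold change 0.56, SE 0.0937). YLR252W (log2 fold change 0.58, SE 0.098) has no entry in the RefSeq annotation used here, and reads of overlapping genes cannot be told apart where strand was not used in counting. DESeq2 called all 5. Over all 21 alternatives of the fit the adjusted p of *TKL2* ranged between 9.22e-08 and 0.343 and was under 0.05 in 4.

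Several genes of the general stress response had larger differences with a wider spread. *FMP16*, a mitochondrial protein of unclear role, was at 54.0, 74.7 and 70.7 CPM in Htt-103Q [*SLX5*] against 22.1, 23.5 and 42.1 CPM in Htt-103Q [V] (log2 fold change 1.18, SE 0.213). *EGO4*, a small protein under Msn2 and Msn4, was at 76.3, 107 and 120.2 CPM in Htt-103Q [*SLX5*] against 28.7, 36.9 and 71.9 CPM in Htt-103Q [V] (log2 fold change 1.14, SE 0.291). *ALD3*, a stress-induced aldehyde dehydrogenase, was at 212, 265 and 320.0 CPM in Htt-103Q [*SLX5*] against 97.5, 117 and 188 CPM in Htt-103Q [V] (log2 fold change 0.99, SE 0.214). In all 3 the highest vector culture was Htt-103Q [V] c, which stood below the lowest culture with the plasmid. *GAD1*, glutamate decarboxylase, was at 312, 381 and 396 CPM in Htt-103Q [*SLX5*] against 131, 179 and 284 CPM in Htt-103Q [V] (log2 fold change 0.88, SE 0.212). Its neighbor on chromosome XIII, *GTO3*, a glutathione transferase, had lower counts with the plasmid, 24.5, 20.5 and 25.6 CPM in Htt-103Q [*SLX5*] against 30.1, 30.8 and 30.4 CPM in Htt-103Q [V] (log2 fold change -0.37, SE 0.0861), so this adjacent pair differed in opposite directions. Smaller and even differences were those of *SPO12*, of mitotic exit (log2 fold change 0.37, SE 0.0673), *NDE2*, an external NADH dehydrogenase of mitochondria (0.38, SE 0.0703), *PAI3*, the inhibitor of proteinase A (0.50, SE 0.0963), and *SCS22*, of contacts between the endoplasmic reticulum and the plasma membrane (0.39, SE 0.0769). *NDE2* varied little with the plasmid, at 50.7, 51.3 and 51.5 CPM in Htt-103Q [*SLX5*] against 40.8, 35.3 and 41.9 CPM in Htt-103Q [V]. The retrotransposon genes YPR158W-B (0.90, SE 0.178) and YDR098C-A (1.02, SE 0.231) belong to families of near-identical copies, between which reads may be split, and both values are uncertain.

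Among genes of at least 10 CPM with lower counts in Htt-103Q [*SLX5*] and no overlap, *YCR087C-A*, an uncharacterized zinc-binding nucleolar protein, had the largest difference and the smallest p. It was at 3.43, 8.53 and 5.21 CPM in Htt-103Q [*SLX5*] against 25.2, 17.9 and 15.1 CPM in Htt-103Q [V] (log2 fold change -1.77, SE 0.316). The groups were well apart, but the locus is also annotated as the dubious gene YCR087W in the authors' table, at 49.2, 49.5 and 42.4 CPM in Htt-103Q [*SLX5*] and 55.0, 50.5 and 31.6 CPM in Htt-103Q [V], and how reads were split between the 2 names was not tested. *ARG1*, argininosuccinate synthase of arginine synthesis, was at 320.4, 248 and 285 CPM in Htt-103Q [*SLX5*] against 466, 489 and 380.3 CPM in Htt-103Q [V] (log2 fold change -0.65, SE 0.134). *OPI1*, the repressor of phospholipid synthesis genes, was at 198, 167 and 194 CPM in Htt-103Q [*SLX5*] against 277, 241 and 248 CPM in Htt-103Q [V] (log2 fold change -0.46, SE 0.0956). Neither overlapped between the groups. *QDR3*, a multidrug transporter, had -0.33 (SE 0.0703), *MCM1*, a transcription factor of the cell cycle and of mating type, -0.27 (SE 0.0598), *MKC7*, a cell surface aspartyl protease, -0.44 (SE 0.0963), and *ERG11*, the sterol demethylase of ergosterol synthesis, -0.29 (SE 0.0664). *MCM1* was at 583, 551 and 592 CPM in Htt-103Q [*SLX5*] against 727, 692 and 665 CPM in Htt-103Q [V], so that a difference of this size was still larger than the range within either group. *EAF5*, of the NuA4 histone acetyltransferase (-0.34, SE 0.0768), *MED4*, of Mediator (-0.26, SE 0.062), YKR075C, of unknown function (-0.49, SE 0.116), and *THI4*, of thiamine synthesis (-0.58, SE 0.141), did not overlap between the groups either. None of these genes passed edgeR's quasi-likelihood test, where *YCR087C-A* had an adjusted p of 0.11, and DESeq2 called all of them.

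**Figure D4:**
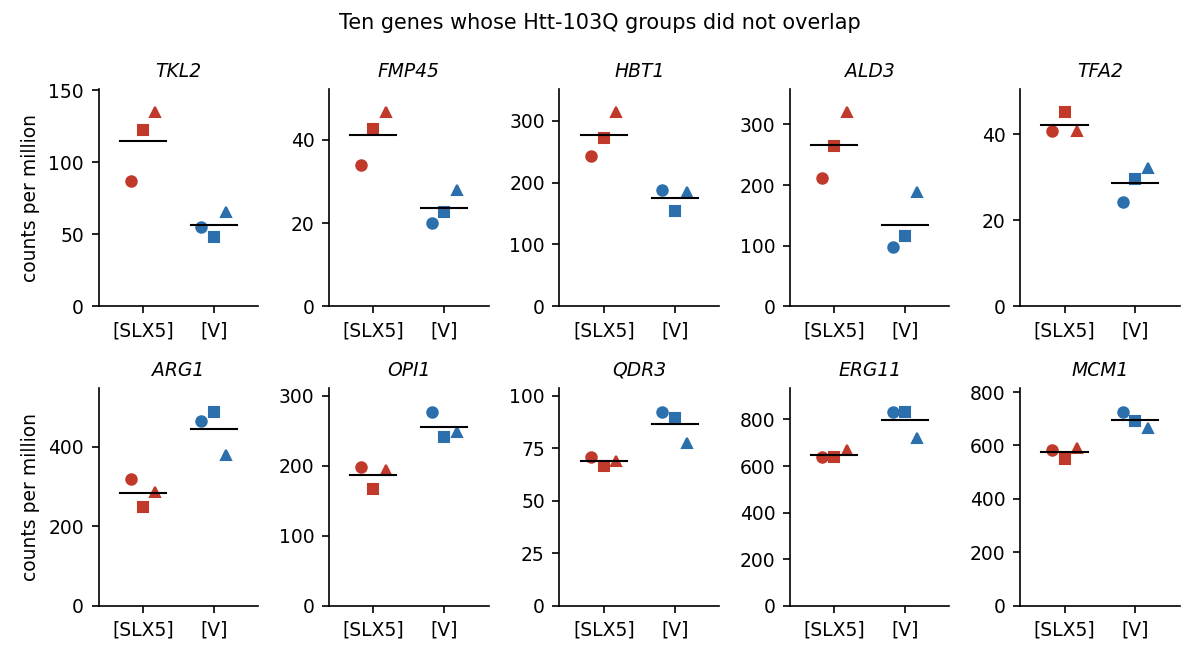
CPM of 10 genes in each culture of Htt-103Q [*SLX5*] (red, left) and Htt-103Q [V] (blue, right), with circles, squares and triangles for clones a, b and c, bars for the mean and each axis starting at 0. The upper row shows genes with higher and the lower row genes with lower counts in Htt-103Q [*SLX5*]. For all of them but *HBT1* and *OPI1*, the triangle of Htt-103Q [V] c is the vector culture nearest to the cultures with the plasmid.

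The study also assayed *HBT1*, *UIP4*, *UBC11* and *ACT1* by RT-PCR and named *FUN14*. *UIP4*, a protein of the nuclear envelope, was at 269, 281 and 308 CPM in Htt-103Q [*SLX5*] against 157, 171 and 243 CPM in Htt-103Q [V] (log2 fold change 0.59, SE 0.135), without overlap. *UBC11*, a ubiquitin-conjugating enzyme, was a low transcript at 4.70, 5.43 and 5.85 CPM in Htt-103Q [*SLX5*] against 11.2, 7.03 and 6.87 CPM in Htt-103Q [V] (log2 fold change -0.66, SE 0.219). The groups did not overlap, but the distance between the nearest cultures was small beside the spread within Htt-103Q [V]. *FUN14*, of the mitochondrial outer membrane, overlapped narrowly, at 67.2, 79.8 and 74.7 CPM in Htt-103Q [*SLX5*] against 51.7, 53.2 and 67.3 CPM in Htt-103Q [V] (log2 fold change 0.36, SE 0.103). *ACT1*, actin, overlapped at 1813, 1869 and 1937 CPM in Htt-103Q [*SLX5*] and 1737, 1742 and 1835 CPM in Htt-103Q [V] (log2 fold change 0.08, SE 0.0611). None of these genes passed edgeR's quasi-likelihood test (adjusted p = 0.119 for *UIP4*, 0.154 for *UBC11*, 0.145 for *FUN14* and 0.425 for *ACT1*). DESeq2 and the likelihood ratio procedure both called *UIP4* and *FUN14*, and neither called *UBC11*. By RT-PCR on the same RNA samples, the study reports *HBT1* and *UIP4* as raised by the plasmid and *UBC11* as lowered. It reports no significant effect on *ACT1*.

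Genes of the general stress response had the highest median of the 39 gene lists. Of 51 tested, 47 had a positive log2 fold change with a median of 0.46, where 49.6% of all genes were positive and the median of all genes was -0.0014. None passed edgeR's test, 38 had an unadjusted p under 0.05 in this direction (12.7% of all genes did) and none in the other, and 26 were higher without overlap (8.38% of all genes). Members not yet given include *YGP1*, a secreted glycoprotein of the stationary phase, at 563, 754 and 791 CPM in Htt-103Q [*SLX5*] against 363, 400.1 and 528 CPM in Htt-103Q [V] (log2 fold change 0.71, SE 0.146), and *SPI1*, a cell wall protein of weak acid stress, at 271, 359 and 356 CPM against 149, 165 and 260 CPM (0.78, SE 0.178). Over the list, the median deviation of log2(CPM + 1) from each gene's mean was 0.18, 0.24 and 0.33 in Htt-103Q [*SLX5*] a, b and c, and -0.42, -0.31 and 0.03 in Htt-103Q [V] a, b and c. The cultures did not overlap, yet Htt-103Q [V] c stood closer to the lowest culture with the plasmid than to either other vector culture. Without Htt-103Q [V] c the median was 0.60 and 37 of the 51 passed edgeR's test as higher, as 14.1% of all genes did. DESeq2 called 26 of them as higher with all libraries, against 3.02% of all genes.

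Genes of trehalose and glycogen, the storage carbohydrates, followed with a median of 0.45, and 20 of 21 were positive, 17 of them at an unadjusted p under 0.05, where 12.7% of all genes were. *GDB1*, the glycogen debranching enzyme, was at 339, 446 and 432 CPM in Htt-103Q [*SLX5*] against 186, 202 and 312 CPM in Htt-103Q [V] (log2 fold change 0.80, SE 0.17). *GSY2*, glycogen synthase, was at 300.3, 329 and 339 CPM in Htt-103Q [*SLX5*] against 201, 208 and 299 CPM in Htt-103Q [V] (0.45, SE 0.129), so that Htt-103Q [V] c fell just short of the lowest culture with the plasmid. *NTH1*, the neutral trehalase that breaks trehalose down, was also higher, at 256, 310 and 287 CPM against 144, 175 and 244 CPM (0.60, SE 0.149), and genes of synthesis and of breakdown thus had the same direction. In 5 of the 21 the groups did not overlap, with 8.38% of all genes higher in that way.

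Genes of galactose use, which share the inducer of the Htt construct, had a median of 0.26 with 9 of 10 positive. *GAL1*, galactokinase, was at 2810, 4419 and 3904 CPM in Htt-103Q [*SLX5*] against 1626, 2188 and 3276 CPM in Htt-103Q [V] (log2 fold change 0.65, SE 0.215), and the groups overlapped through Htt-103Q [V] c. *GCY1*, a glycerol dehydrogenase under Gal4, was at 1349, 1580 and 1474 CPM in Htt-103Q [*SLX5*] against 756, 958 and 1305 CPM in Htt-103Q [V] (0.54, SE 0.151). It was the 1 member of 10 without overlap, near the 8.38% of all genes that were higher in that way. The level of the Htt transcript itself was not analysed here.

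Smaller positive medians were found for the eisosome and Sur7 family (0.18, 13 of 16 positive), vacuolar hydrolases (0.18, 14 of 16), autophagy (0.16, 31 of 37), glycolysis and fermentation (0.13, 24 of 33) and the mitochondrial ribosome (0.13, 60 of 72). In all but the eisosome list, the list levels overlapped between the groups through Htt-103Q [V] c, though narrowly for vacuolar hydrolases. For autophagy Htt-103Q [V] c was at 0.10 and Htt-103Q [*SLX5*] b at 0.04. For glycolysis and the mitochondrial ribosome it was at 0.08 and 0.02, with Htt-103Q [*SLX5*] a at -0.03 and -0.02. *ATG34*, a receptor of the pathway that carries alpha-mannosidase to the vacuole, was at 54.0, 53.7 and 58.5 CPM in Htt-103Q [*SLX5*] against 34.9, 32.8 and 45.6 CPM in Htt-103Q [V] (log2 fold change 0.55, SE 0.119). *APE3*, a vacuolar aminopeptidase, was at 1188, 1225 and 1165 CPM in Htt-103Q [*SLX5*] against 859, 938 and 1088 CPM in Htt-103Q [V] (0.31, SE 0.0802). *RSM27*, of the small mitochondrial ribosomal subunit, was at 104, 125 and 100.6 CPM in Htt-103Q [*SLX5*] against 76.7, 86.7 and 88.3 CPM in Htt-103Q [V] (0.39, SE 0.085). Of the mitochondrial ribosomal genes 15 were higher without overlap and 1 lower, against 8.38% and 8.43% of all genes. The mating receptor gene *STE3*, which alpha cells use to sense a-factor, was at 160, 209 and 150.1 CPM in Htt-103Q [*SLX5*] against 102, 108 and 133 CPM in Htt-103Q [V] (0.60, SE 0.139), although the mating type list as a whole had a median of 0.06.

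**Figure D5:**
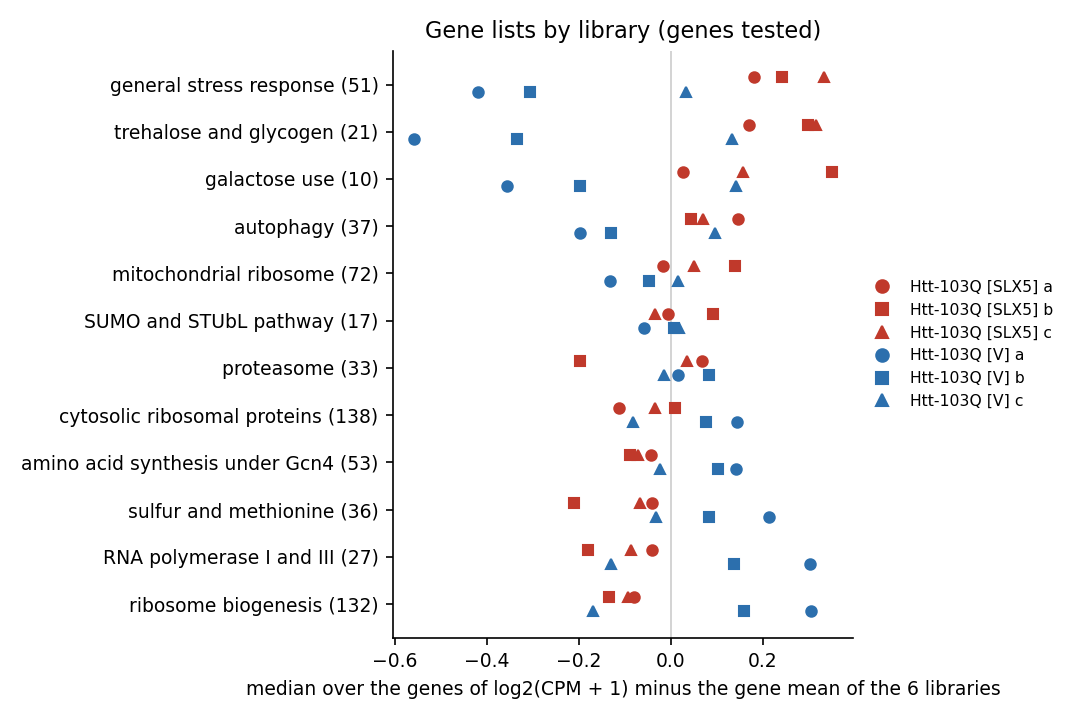
For 12 gene lists (number of tested genes in brackets), the median over the genes of log2(CPM + 1) minus the gene's mean of the 6 libraries, in log2 units, for each culture of Htt-103Q [*SLX5*] (red) and Htt-103Q [V] (blue). In the 2 upper and the 4 lower lists Htt-103Q [V] a and b lie on the far side of 0 from the cultures with the plasmid, and Htt-103Q [V] c lies near those cultures. For SUMO and the proteasome the groups mix.

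On the other side stood genes of growth. Ribosome biogenesis had the lowest median, -0.22, with 128 of 132 negative, 46 at an unadjusted p under 0.05 (10.6% of all genes were lower at that p) and none in the other direction. Yet only 5 of the 132 were lower without overlap, where 8.43% of all genes were, and the level of the list was lowest in Htt-103Q [V] c: -0.08, -0.13 and -0.09 in Htt-103Q [*SLX5*] a, b and c, and 0.31, 0.16 and -0.17 in Htt-103Q [V] a, b and c. *NHP2*, a protein of box H/ACA ribonucleoproteins, shows it with 294, 264 and 269 CPM in Htt-103Q [*SLX5*] and 431, 377 and 280.3 CPM in Htt-103Q [V] (log2 fold change -0.40, SE 0.132). *BUD22*, of small subunit assembly, was at 217, 178 and 188 CPM in Htt-103Q [*SLX5*] and 317, 277 and 204 CPM in Htt-103Q [V] (-0.45, SE 0.142). Without Htt-103Q [V] c the median of the list was -0.35 and 94 of the 132 passed edgeR's test as lower, as 11.9% of all genes did. RNA polymerases I and III, which make ribosomal and transfer RNA, had a median of -0.20 with 25 of 27 negative, and cytosolic ribosomal proteins -0.09 with 114 of 138 negative, but 7.4e-05 without the 4 libraries of clone letter a. Without overlap, 2 of the 27 were lower and 0 higher, and 5 of the 138 lower and 1 higher. Of all genes, 8.43% were lower and 8.38% higher in that way. In both lists the level of Htt-103Q [V] c lay within the range of the Htt-103Q [*SLX5*] cultures. *RPL43A*, of the large subunit, was at 484, 487 and 455 CPM in Htt-103Q [*SLX5*] against 683, 630.4 and 502 CPM in Htt-103Q [V] (-0.35, SE 0.0951). Near-identical ribosomal protein pairs can share reads, and the list takes *RPP1*, a subunit of RNase P, by its name alone.

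Sulfur and methionine genes had a median of -0.20 with 29 of 36 negative, and 10 were lower without overlap and none higher, against 8.43% and 8.38% of all genes. *MET16*, of sulfate assimilation, was at 47.5, 40.8 and 43.2 CPM in Htt-103Q [*SLX5*] against 69.2, 61.3 and 49.0 CPM in Htt-103Q [V] (log2 fold change -0.45, SE 0.111). *SAH1*, S-adenosylhomocysteine hydrolase, was at 1472, 1361 and 1466 CPM in Htt-103Q [*SLX5*] against 1758, 1690 and 1873 CPM in Htt-103Q [V] (-0.31, SE 0.0866), and its highest value was that of Htt-103Q [V] c, unlike most genes given here. *MET30*, the F-box protein that holds the activator Met4 in check, was at 111, 98.7 and 120.2 CPM in Htt-103Q [*SLX5*] against 187, 148 and 124 CPM in Htt-103Q [V] (-0.48, SE 0.134). *MET4* itself had -0.23 (SE 0.0672), so activator and inhibitor had the same direction. Amino acid synthesis under Gcn4 had a median of -0.14 with 46 of 53 negative, 13 of them lower without overlap (8.43% of all genes) and none higher. *LYS20*, homocitrate synthase, was at 146, 155 and 147 CPM in Htt-103Q [*SLX5*] against 193, 193 and 162 CPM in Htt-103Q [V] (-0.29, SE 0.0847), while *BAT2*, a branched-chain aminotransferase, was at 99.4, 122 and 141 CPM against 80.2, 92.8 and 101.2 CPM, with overlap (0.40, SE 0.122). Ergosterol synthesis had a median of -0.14 with 20 of 27 negative, with *ERG2*, a sterol isomerase, at 450.0, 412 and 417 CPM in Htt-103Q [*SLX5*] against 699.7, 609 and 452 CPM in Htt-103Q [V] (-0.46, SE 0.134).

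Among genes of protein quality control the lists differed. The proteasome had a median of -0.05 over 33 genes, and none of them had an unadjusted p under 0.05 in either direction, where 23.2% of all genes did. Hsp90 and its cochaperones had a median of -0.09 over 14 genes and Hsp70 and Hsp110 -0.12 over 14. Chaperonin and prefoldin had a median of -0.18 with 10 of 15 negative. At an unadjusted p under 0.05, 5 were lower and 1 higher, against 10.6% and 12.7% of all genes. No member was without overlap, where 16.8% of all genes were. *BUD27*, a prefoldin-like protein, was at 62.4, 52.7 and 56.0 CPM in Htt-103Q [*SLX5*] and 104.6, 82.1 and 58.2 CPM in Htt-103Q [V] (log2 fold change -0.52, SE 0.174), with overlap through Htt-103Q [V] c. *SSA2*, a cytosolic Hsp70, was the member with the smallest p, at 2114, 1832 and 2112 CPM in Htt-103Q [*SLX5*] against 2975, 2732 and 2308 CPM in Htt-103Q [V] (log2 fold change -0.40, SE 0.108), whereas its paralog *SSA1* was at 0.01 (SE 0.113). The 2 are near-identical copies, so their values are uncertain. *HSP104*, the disaggregase, was at 1529, 1289 and 1531 CPM in Htt-103Q [*SLX5*] and 1051, 1134 and 1542 CPM in Htt-103Q [V] (0.22, SE 0.135), with overlap through Htt-103Q [V] c. *HSP31*, a chaperone with a methylglyoxalase activity, was at 48.7, 43.9 and 54.9 CPM in Htt-103Q [*SLX5*] against 30.3, 33.5 and 42.8 CPM in Htt-103Q [V] (0.47, SE 0.117). Histone genes had a median of -0.01 over 11.

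Apart from *SLX5*, the SUMO pathway was near its level in Htt-103Q [V], with 10 of the 16 other genes positive and a median of 0.02. *SMT3*, SUMO itself, was at 213, 219 and 218 CPM in Htt-103Q [*SLX5*] and 213, 209 and 207 CPM in Htt-103Q [V] (log2 fold change 0.05, SE 0.0674). *UBC9*, the conjugating enzyme, was at 0.06 (SE 0.0798), *ULP1*, the SUMO protease of the nuclear pore, at 0.02 (SE 0.0709) and *ULP2*, the nuclear SUMO protease that trims chains, at -0.02 (SE 0.0583). The SUMO ligases differed a little: *SIZ1* was at 66.9, 66.8 and 67.5 CPM in Htt-103Q [*SLX5*] against 75.5, 74.0 and 70.4 CPM in Htt-103Q [V] (-0.13, SE 0.0565), and *MMS21* at 11.9, 8.98 and 10.8 CPM against 16.6, 12.8 and 12.6 CPM (-0.41, SE 0.145). *ESC2*, a protein with SUMO-like domains, was at 16.9, 24.5 and 18.2 CPM in Htt-103Q [*SLX5*] against 12.8, 15.3 and 16.6 CPM in Htt-103Q [V] (0.41, SE 0.137). *SIZ1* and *MMS21*, lower, and *ESC2*, higher, did not overlap between the groups, where 8.43% of all genes were lower and 8.38% higher in that way. None of the 17 but *SLX5* passed edgeR's quasi-likelihood test.

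Read against the promoter letters, the lists differed in the elements they hold. The stress response element AGGGG stood in 38 of 51 windows of the general stress response (74.5%), against 22.2% of all windows. Those 38 genes had a median log2 fold change of 0.51 and the 13 without it 0.25. Over all 5767 windows the 1283 genes with AGGGG had a median of 0.06 and the rest -0.01. GATGAG stood in 89.4% and AAAATTTT in 78.8% of the 132 ribosome biogenesis windows, against 19.0% and 9.59% of all. Within that list the median was -0.221 with GATGAG and -0.181 without. With AAAATTTT it was -0.203 and without it -0.245, so the genes holding AAAATTTT had the smaller difference. Over all windows the 1096 genes with GATGAG had a median of -0.07 against 0.02 for the rest, and the 553 genes with AAAATTTT -0.10 against 0.01. The Gcn4 site TGACTC stood in 62.3% of the 53 windows of amino acid synthesis, with a median of -0.16 for genes with it and -0.11 without. Cbf1 letters stood in 38.9% of the sulfur and methionine windows, with a median of -0.24 with it and -0.17 without. The Rpn4 site stood in 81.8% of the 33 proteasome windows, whose median was near 0 as given above. The genes of these lists are part of all windows, and the lists were known by function and partly by these elements, so no test is given.

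With the shorter glutamine tract the same plasmid gave a like rise of *SLX5*. Its log2 fold change was 3.50 (SE 0.149) in Htt-103Q cells and 3.60 (SE 0.176) in Htt-25Q cells, and the interaction, the effect in Htt-103Q cells minus that in Htt-25Q cells, had an unadjusted p of 0.609 by edgeR's quasi-likelihood test. In Htt-25Q cells 3 of the 6321 genes were called (0.0475%), *SLX5*, *LYS20* and *SNZ1*, and 8.94% had an unadjusted p under 0.05. Across all 6321 genes the interaction passed edgeR's quasi-likelihood test for 0 genes, with 348 (5.51%) at an unadjusted p under 0.05. DESeq2 called 0 as well, with 389 at an unadjusted p under 0.05. Without Htt-103Q [V] c, 1076 genes had an unadjusted interaction p under 0.05 and 3 were called (*RTN2*, *GSY1* and *CIN5*). With all libraries neither of these tests shows a gene to respond differently to *SLX5* in the 2 strains. *LEU2*, the marker beside the Htt construct, was at 5239 to 6022 TPM in the Htt-103Q libraries. In the Htt-25Q libraries it was at 719 to 801 TPM. Htt length and integrant strain cannot be told apart in the interaction. *TKL2* was at 1.03 (SE 0.156) in Htt-103Q cells and 0.50 (SE 0.172) in Htt-25Q cells, *FMP45* at 0.80 and 0.54, *HBT1* at 0.66 and 0.30, and *ARG1* at -0.65 (SE 0.134) in Htt-103Q cells and -0.94 (SE 0.147) in Htt-25Q cells. By contrast, *TFA2* was at 0.56 in Htt-103Q cells and 0.10 in Htt-25Q cells, *YCR087C-A* at -1.77 and 0.08, *OPI1* at -0.46 and 0.10, and *SSA2* at -0.40 and 0.14, with unadjusted interaction p of 0.00645, 0.00222, 0.00244 and 0.00635, none of which passed after adjustment. Over 5393 genes of at least 10 CPM other than *SLX5*, the log2 fold changes in Htt-103Q and in Htt-25Q cells had a Pearson r of 0.47, and over all tested genes other than *SLX5* one of 0.16. This correlation is across genes, which are not independent replicates, and the comparisons share no library but share scaling and dispersions. Medians of the lists were 0.46 in Htt-103Q cells and 0.29 in Htt-25Q cells for the general stress response, 0.45 and 0.11 for trehalose and glycogen, -0.22 and -0.25 for ribosome biogenesis, -0.20 and -0.01 for sulfur and methionine, and -0.14 and -0.17 for amino acid synthesis.

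The same lists were also read in the vector cells of both Htt lengths. In Htt-103Q [V] against Htt-25Q [V], a comparison that uses the same Htt-103Q [V] libraries and another integrant strain, the median log2 fold change was -0.92 for the general stress response, -0.73 for trehalose and glycogen, -0.75 for galactose use, 0.51 for ribosome biogenesis and 0.44 for sulfur and methionine. The corresponding medians of Htt-103Q [*SLX5*] against Htt-103Q [V] were 0.46, 0.45, 0.26, -0.22 and -0.20. Since both comparisons rest on the Htt-103Q [V] cultures, these values are given side by side and no relation between them is drawn.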

How the data were processed

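RNA was taken from 11 yeast cultures and sequenced, 6 of them used for the comparison described here. Per the labels and the study's methods, the authors ran bcl2fastq 2.17, Trimmomatic 0.36, STAR 2.5.1 and RSEM 1.2.22 against the S288C genome, each library alone. The authors deposited expected counts per gene (estimated, 16.5% of values not whole) and TPM, which were used only where TPM are named. The labels name the groups, and the letters a to c name separate clones.

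The expected counts were rounded and fitted with edgeR 4.0.16 in R 4.3.3 (TMM, filterByExpr over the 4 groups, quasi-likelihood F test, Benjamini-Hochberg over 6321 genes, threshold 0.05) over all 11 libraries with 1 mean per group. DESeq2 1.42.0, a likelihood ratio procedure in 2 steps (any difference among groups, then the pair), for which the study's methods give the steps but not the pairwise test, and the other alternatives of the closing section were run on the same table. The procedures were run on simulated data with the common dispersion for every gene and no culture apart from its group. Such data cannot show how the tests treat a culture like Htt-103Q [V] c. Python 3.11.15 with pandas 2.3.3, numpy 2.4.6 and matplotlib 3.10.9 served for the tables and plots.

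Named genes were *SLX5* and the 2 annotated genes on either side of it, *SLX8*, *HIS3* and *LEU2*, 5 genes of the study's text, in each direction the 12 with the smallest p and the 8 with the largest change among genes of at least 10 CPM whose groups did not overlap, and up to 4 genes with the smallest p in each of 39 lists. Outside this rule, *ERR2*, *MF(ALPHA)1*, *SIZ1*, *SMT3*, *SNZ1*, *SSA1*, *UBC9*, *ULP1*, *ULP2* and *YCR087W* were chosen after their values were seen. These lists, the members and the tests were chosen with earlier results of these data known. Gene names, positions and upstream sequences came from RefSeq R64, to which 6048 of 7126 gene IDs matched. One upstream sequence that the rule takes is not reported here. Same-letter libraries of the Htt-103Q groups had correlations of their deviations of 0.13, -0.0138 and -0.0944, so the letters were not taken as pairs. Library a had the highest ribosomal RNA share of its group throughout. It was 1.61% in Htt-103Q [*SLX5*], 1.02% in Htt-103Q [V], 2.40% in Htt-25Q [*SLX5*] and 2.21% in Htt-25Q [V]. Whether libraries of a letter were handled together was not tested. The 6 libraries hold about as many counts each, so depth limits mainly the low genes.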

Additional observations from a re-analysis of the deposited data

How the results depend on the processing

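*SLX5* kept its direction and its call in all 21 alternatives, with a log2 fold change between 3.36 and 3.64 when 1 library was left out and an adjusted p of at most 2.86e-05. The count of called genes, 1 by edgeR's quasi-likelihood test, was 294 with DESeq2 and 302 with the likelihood ratio procedure, and ranged between 1 and 1647 when 1 library was left out, the highest without Htt-103Q [V] c. With the clone letter as a replicate block 3 genes were called, *SLX5*, *FMP45* and *PHM7*. It was 1 with size factors by RLE, without rounding, with no filter on low counts, with a minimum of 10 CPM, with robust dispersions, with the Htt-103Q libraries alone, and without the 4 libraries of clone letter a, an alternative chosen after the data were seen. The interaction count, 0, was 1 with the likelihood ratio procedure (YPR137C-A) and between 0 and 3 when 1 library was left out (*RTN2*, *GSY1* and *CIN5* without Htt-103Q [V] c, each larger in Htt-103Q cells). The cause of these shifts was not tested. Of 179 other named genes, 88 passed with DESeq2, 82 with the likelihood ratio procedure and 150 without Htt-103Q [V] c. Of all genes tested in these fits, 4.65%, 7.26% and 26.1% passed, in the same order. Many of the named genes were picked by small p or large change in these same counts. Their pass counts were thus favored by the choice and are no independent support. Of 3740 pairs of gene and alternative, 4 turned direction, all of values near 0. *GRX6* (0.04) lay between -0.048 and 0.13 when 1 library was left out, negative without Htt-103Q [*SLX5*] b or Htt-103Q [V] a. *LEU2* (-0.02) lay between -0.10 and 0.024 when 1 library was left out, positive without Htt-103Q [*SLX5*] a, and at 0.0066 without clone letter a. Of 819 pairs of list and alternative, 24 medians moved by more than the SD of the list level within groups, and 26 changed sign, in 12 lists with medians between -0.0892 and 0.0588 (SUMO, proteasome, histones, mating type and cytosolic ribosomal proteins among them).

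The comparison has 3 libraries a group. The coefficient of variation over all 11 libraries was 11% (common dispersion 0.0121), and the Htt-103Q libraries alone had a larger common dispersion of 0.0137. Htt-103Q [V] c lies among the Htt-103Q [*SLX5*] libraries, so the count of called genes rests on that culture and on the test used. Reads do not tell plasmid from chromosomal *SLX5*, and for genes with near-identical copies or overlapping neighbors the sharing of reads was not tested.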
